A study of Mus musculus with 3 samples.

Results

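Negative regulators of Toll-like receptor (TLR) signaling are the proteins that limit the response of a macrophage to microbial products. The genes described here are 10 of them, *Tnfaip3*, *Tnip1*, *Tnip3*, *Irak3*, *Sigirr*, *Tollip*, *Cyld*, *Peli1*, *Cd180* and *Tnfaip8l2*, chosen by name and found on the array by their gene symbol. They are 10 of 26840 genes with a symbol, and they are covered by 22 of 56605 gene probes. The study asked how lactobacilli change the response of macrophages to LPS, the bacterial lipopolysaccharide that activates TLR4. RNA of RAW macrophages, cells of an established mouse line, was labelled in 1 colour and hybridised to Agilent SurePrint G3 Mouse microarrays, on which the brightness of a probe follows the abundance of its transcript. Of the 3 arrays, 1 was from cells given LPS alone (LPS), 1 from cells given *L. rhamnosus* CRL1505 before LPS (CRL1505 + LPS) and 1 from cells given *L. plantarum* CRL1506 before LPS (CRL1506 + LPS).

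In all 3 conditions LPS was used at 50 ng/mL, so that LPS alone is the control and also carries the stimulus. Both strains were given at 50000000 cells/mL for 24 h and washed off before LPS was added. The sources differ on how long LPS was left on, with 12 h in the design text and the study's methods and 3 h in the description of each sample. Cells without LPS were not analysed here, so no value below describes the effect of LPS itself. A single cell line was used, and nothing in the labels says from how many cultures the RNA of an array came. Each condition has 1 array, so that no difference below was checked on replicates and no p-value could be given. LPS and CRL1506 + LPS shared a slide and a scan run. CRL1505 + LPS had a slide and a run of its own, so that this strain cannot be told apart from its slide. All values are relative to the brightness of their own array, and less RNA of a gene per cell cannot be told apart from fewer cells that express it.

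TLR4 signals through the adaptor MyD88 to kinases of the IRAK family and the ubiquitin ligase TRAF6, whose ubiquitin chains activate the TAK1 and IKK kinases and free NF-kappaB to enter the nucleus. Negative regulators act on each of these steps, as receptors that dampen TLR4 at the membrane, as proteins that block the IRAK kinases, or as enzymes and adaptors that remove or bind the ubiquitin chains. Several of them are themselves NF-kappaB target genes in macrophages, and so form feedback loops that are well known from endotoxin tolerance.

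The promoters of the members are shown first, since NF-kappaB sites are the best known feature of feedback regulators. For 9 of the 10 members, all but *Sigirr*, RefSeq sequences on GRCm38.p6 were at hand, and they made up 12 promoters of 300 bases, from 250 bases before to 50 bases after a transcription start. The NF-kappaB consensus motif, searched on both strands, had a match in the promoters of 4 members, *Tnfaip3*, *Tnip1*, *Tnip3* and *Cyld*. In comparison, 4.51% of all 32851 promoters of this length, and 5.14% of 27025 genes by any of their promoters, held a match. The 4 promoters are printed below 5′ to 3′ along the strand of their gene, with the matches in capitals. They lie at chr10:19015361-19015660 (minus strand) for *Tnfaip3*, chr11:54962891-54963190 (minus strand) for *Tnip1*, chr6:65590148-65590447 (plus strand) for *Tnip3* and chr8:88696778-88697077 (plus strand) for *Cyld*.
Tnfaip3: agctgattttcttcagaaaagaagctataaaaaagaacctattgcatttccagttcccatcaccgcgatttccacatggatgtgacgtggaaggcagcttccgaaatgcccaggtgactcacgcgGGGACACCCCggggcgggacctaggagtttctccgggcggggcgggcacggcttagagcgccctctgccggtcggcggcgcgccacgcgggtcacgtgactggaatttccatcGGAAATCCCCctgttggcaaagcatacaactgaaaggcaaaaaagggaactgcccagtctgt
Tnip1: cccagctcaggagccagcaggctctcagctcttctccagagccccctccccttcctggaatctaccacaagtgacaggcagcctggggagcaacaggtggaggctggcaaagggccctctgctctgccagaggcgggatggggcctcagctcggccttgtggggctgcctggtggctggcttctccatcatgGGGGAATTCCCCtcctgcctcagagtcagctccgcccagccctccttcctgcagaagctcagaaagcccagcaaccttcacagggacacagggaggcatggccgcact
Tnip3: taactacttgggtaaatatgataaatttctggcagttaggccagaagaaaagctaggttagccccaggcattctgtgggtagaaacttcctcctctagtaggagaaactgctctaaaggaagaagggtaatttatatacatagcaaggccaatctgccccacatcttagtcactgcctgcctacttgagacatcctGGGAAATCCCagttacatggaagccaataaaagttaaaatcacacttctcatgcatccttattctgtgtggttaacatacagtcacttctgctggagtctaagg
Cyld: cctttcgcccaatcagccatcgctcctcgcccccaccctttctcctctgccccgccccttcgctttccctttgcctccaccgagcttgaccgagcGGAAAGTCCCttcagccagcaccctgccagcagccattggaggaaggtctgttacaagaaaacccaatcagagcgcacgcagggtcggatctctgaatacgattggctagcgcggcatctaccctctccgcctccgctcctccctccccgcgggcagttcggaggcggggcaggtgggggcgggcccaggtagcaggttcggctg

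In *Tnfaip3* the matches began 125 and 12 bases before the transcription start. The run of capitals in *Tnip1* is made of 3 overlapping matches that began 58, 57 and 56 bases before the start. In *Tnip3* the match began 54 bases before the start, and in *Cyld* 155 bases before it. The AP-1 motif TGANTCA, searched on both strands and overlapping none of these, was held by 1 member, *Tnfaip3*, 136 bases before the start, against 7.81% of all promoters and 8.97% of genes. These are matches of letters in a window of 300 bases and not measured binding sites.

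**Figure D1:**
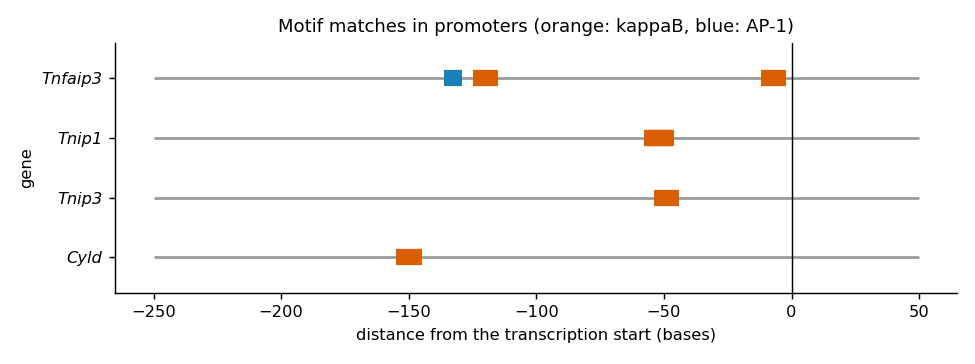
Positions of motif matches in the 4 printed promoters, with the distance from the transcription start in bases on the x axis and 1 line per gene. Orange blocks are NF-kappaB motif matches and the blue block is the AP-1 match of *Tnfaip3*, which lies next to the first of its 2 NF-kappaB matches.

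Levels are given below as log2 signal relative to the 75th percentile over the gene spots on the same array, so that a level of 0 is the brightness below which 75% of gene spots of that array lay. A ratio is the difference between the levels of 2 arrays for the same probe, on the log2 scale, and a gene is represented by its brightest probe. Of the 22 probes, 20 were well above background on each of the 3 arrays and 2 on none, which are additional probes of *Tollip* and *Cyld*. All 10 members were therefore measured, 4 of them (*Tnfaip3*, *Sigirr*, *Tollip* and *Tnfaip8l2*) by 1 probe and 6 by more. The scanner software's own error model gave each of these log2 ratios an error of 0.20 to 0.22. Different probes of a gene disagreed by a similar amount against LPS and by more between the strains. The median SD of the log2 ratio was 0.228 for CRL1505 + LPS against LPS, 0.215 for CRL1506 + LPS against LPS and 0.323 between the strains. None of these errors covers the variation between cultures. The positions of probes are those of the files, on mm9, and whether a probe lies in a coding exon was not worked out, since no mm9 annotation was used.

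The CRL1505 + LPS array was the dimmest, with a signal of 517.0 at the 75th percentile against 743.1 for LPS and 697.9 for CRL1506 + LPS. All 10 macrophage markers looked at, *Adgre1*, *Cd68*, *Csf1r*, *Itgam*, *Lyz2*, *Fcgr1*, *Mertk*, *Ptprc*, *Spi1* and *Cd14*, were well above background on every array. Of 12 markers of T cells, B cells, epithelium and fibroblasts, 3 passed that mark with LPS, 4 with CRL1505 + LPS and 6 with CRL1506 + LPS, with summed signals of 1207, 789 and 1298. The summed signals of the macrophage markers were 535045, 367489 and 407997, respectively. Both sums are of signals not normalized between arrays, so that they also carry the brightness of each array. After normalization, the log2 ratios of the macrophage markers with CRL1505 ran from -1.47 for *Csf1r* to 2.40 for *Fcgr1*. The T cell marker *Cd3e* had levels of 0.23, 0.06 and 0.26 on the LPS, CRL1505 + LPS and CRL1506 + LPS arrays.

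In macrophages given CRL1505 before LPS, 3 negative regulators were at least 2-fold higher than with LPS alone, namely *Irak3*, *Tnfaip8l2* and *Tnfaip3*, against 9.93% of all 15603 genes compared. *Sigirr* was at least 2-fold lower, against 8.41% of all genes. With CRL1506, *Cd180* was at least 2-fold higher by its brightest probe but not by all of its probes, against 5.67% of 16279 genes. No member was at least 2-fold lower, against 3.53% of genes. The median log2 ratio of the 10 members was 0.37 with CRL1505 (all genes 0.01) and -0.20 with CRL1506 (all genes -0.06). Above 0 were 7 members with CRL1505 and 3 with CRL1506, and under 7 other normalizations these counts ran from 5 to 8 and from 2 to 4. The same numbers, 7 and 3, lay above the median of all genes. Under those normalizations that median itself ran from -0.48 to 0.33 with CRL1505 and from -0.26 to 0.02 with CRL1506. Both comparisons use the same LPS array. The plot of levels by probe shows every measured probe, and the plot of ratios to LPS shows how far each value moved with the normalization.

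**Figure D2:**
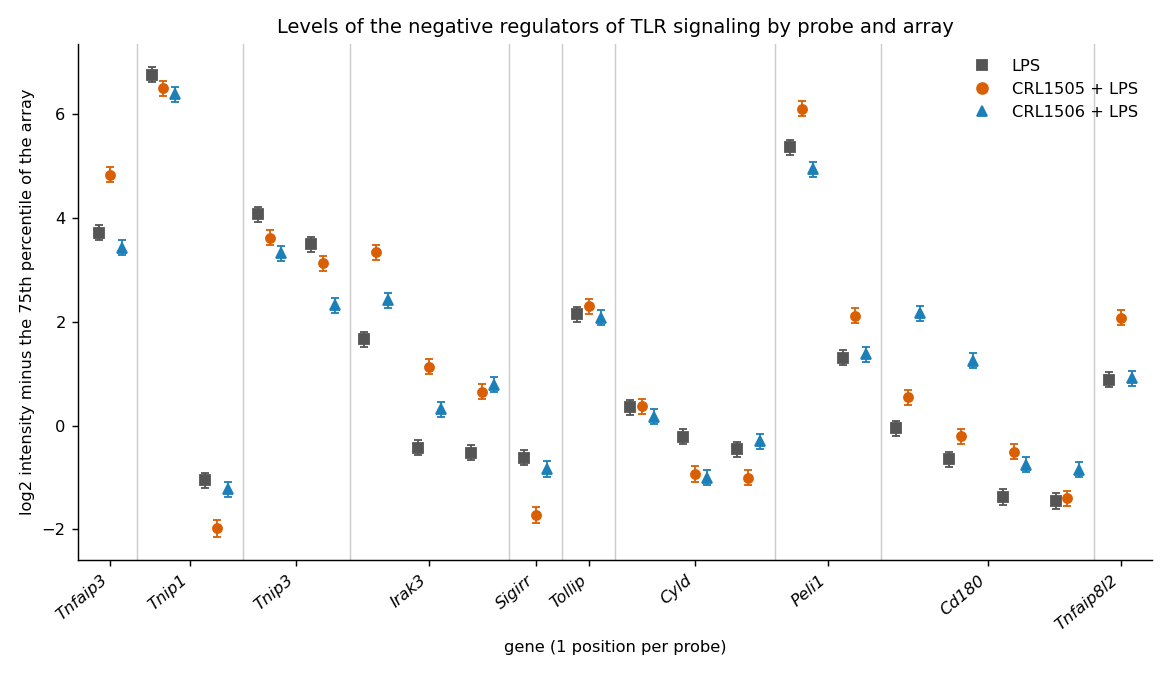
Level of each probe of the members on each array, as log2 signal relative to the 75th percentile of the array, for the 20 probes well above background, with 1 array per condition. Bars are the scanner software's modelled error of the spot and cover no variation between cultures. Probes of *Irak3* are lowest with LPS alone, and the brightest *Cd180* probe is highest with CRL1506 + LPS.

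The ubiquitin-editing enzyme A20, encoded by *Tnfaip3*, removes the activating chains from TRAF6 and is the central feedback inhibitor of NF-kappaB. Its probe, at chr10:18720776-18720835 (minus strand), had a level of 3.72 with LPS, 4.84 with CRL1505 + LPS and 3.43 with CRL1506 + LPS. The CRL1505 + LPS array was thus the highest of the 3 and the other two lay close together. The log2 ratio to LPS was 1.11 with CRL1505, which is 2.17-fold higher, and between 0.61 and 1.41 under the other normalizations, of which 3 of 7 put it past 2-fold. With CRL1506 the log2 ratio was -0.29, and it stayed below 0 under the 7 other normalizations, from -0.50 to -0.19. Higher log2 ratios than that of *Tnfaip3* with CRL1505 were found for 8.57% of genes. The spot itself was even, while among the 20 spots nearest to it 8 were uneven on LPS, 1 on CRL1505 + LPS and 6 on CRL1506 + LPS, and their part in the ratio was not tested.

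*Tnip1* and *Tnip3* encode ABIN1 and ABIN3, adaptors that bind ubiquitin chains and work together with A20. The brightest probe of *Tnip1*, at chr11:54724291-54724350 (minus strand), had levels of 6.76 with LPS, 6.51 with CRL1505 + LPS and 6.39 with CRL1506 + LPS. Its log2 ratios to LPS were -0.26 and -0.37, and the first of these changed sign with the normalization (-0.76 to 0.04). A second *Tnip1* probe at chr11:54754213-54754272 had levels of -1.05, -1.97 and -1.23. By that probe the log2 ratio was -0.92 with CRL1505, 1.89-fold lower than LPS, and -0.17 with CRL1506, so that both probes point down but differ in size.

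Both *Tnip3* probes were lower with either strain than with LPS. The brighter, at chr6:65550106-65550165 (plus strand) and annotated to an Ensembl transcript, had levels of 4.07, 3.62 and 3.33 on the LPS, CRL1505 + LPS and CRL1506 + LPS arrays. Its log2 ratios were -0.45 with CRL1505 and -0.75 with CRL1506, which is 1.68-fold lower. The other *Tnip3* probe, at chr6:65582156-65582215 and annotated to the RefSeq mRNA, had levels of 3.49, 3.13 and 2.32. It gave a log2 ratio of -0.36 with CRL1505 and of -1.17 with CRL1506, which is 2.26-fold lower and past the threshold that the brighter probe did not reach. For the brighter probe the ratios were negative under the 7 other normalizations, from -0.96 to -0.15 with CRL1505 and from -0.95 to -0.64 with CRL1506.

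CYLD is a deubiquitinase that removes lysine-63-linked and linear chains. By its brightest probe, at chr8:91271028-91271087 (plus strand), *Cyld* had levels of 0.35, 0.37 and 0.17 on the LPS, CRL1505 + LPS and CRL1506 + LPS arrays. These lay within the error of a ratio, with log2 ratios of 0.02 with CRL1505 and -0.18 with CRL1506. The other *Cyld* probes gave log2 ratios with CRL1505 and CRL1506 of -0.71 and -0.78 at chr8:91275781-91275840, and of -0.55 and 0.15 at chr8:91229427-91229486, so that they were lower with CRL1505 and disagreed in sign with CRL1506. With CRL1505 the sign of the brightest probe's ratio changed with the normalization, from -0.49 to 0.31.

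At the level of the IRAK kinases, *Irak3* encodes IRAK-M, which lacks kinase activity, holds IRAK1 and IRAK4 at the receptor complex and is a classical marker of endotoxin tolerance. *Irak3* had the highest log2 ratio to LPS of the 10 members with CRL1505. Its brightest probe, at chr10:119578999-119579058 (minus strand), had levels of 1.66 with LPS, 3.34 with CRL1505 + LPS and 2.42 with CRL1506 + LPS, and both strains lay above LPS. The log2 ratio was 1.68 with CRL1505, a 3.21-fold difference, and past 2-fold under all 7 other normalizations, from 1.17 to 1.98. With CRL1506 it was 0.75, or 1.69-fold, and under 2-fold in each of those, from 0.55 to 0.84. Of all genes, 4.24% had a higher ratio than *Irak3* with CRL1505 and 8.51% with CRL1506.

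The other *Irak3* probes were also higher with both strains. The probe at chr10:119579589-119579648 had levels of -0.42, 1.14 and 0.32 and log2 ratios of 1.56 with CRL1505 and 0.74 with CRL1506. A further probe, whose position of chr10:119615854-119619639 covers 3786 bases and so spans an intron, had levels of -0.52, 0.66 and 0.79. Its log2 ratios were 1.18 with CRL1505 (2.26-fold) and 1.31 with CRL1506 (2.47-fold), so that by this probe both strains passed 2-fold and CRL1506 was not the lower of them.

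TOLLIP is an adaptor that keeps IRAK1 inactive and sorts ubiquitinated cargo. *Tollip* had levels of 2.15, 2.30 and 2.08 on the LPS, CRL1505 + LPS and CRL1506 + LPS arrays, by the probe at chr7:149067713-149067772 (minus strand). Its log2 ratios of 0.15 and -0.07 were within the error of a ratio and both changed sign with the normalization, from -0.36 to 0.44 and from -0.27 to 0.01.

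Pellino 1, the product of *Peli1*, is a ubiquitin ligase that acts on IRAK kinases and on signaling proteins downstream, with inhibiting or activating roles that depend on the cell. The brighter *Peli1* probe, at chr11:21050222-21050281 (plus strand), had levels of 5.36 with LPS, 6.11 with CRL1505 + LPS and 4.95 with CRL1506 + LPS. With CRL1505 the log2 ratio was 0.74, or 1.68-fold, and with CRL1506 it was -0.42, or 1.34-fold lower, and neither sign changed under the 7 other normalizations. The second *Peli1* probe, at chr11:21048227-21048286, had levels of 1.31, 2.12 and 1.38. It gave 0.81 with CRL1505, near the brighter probe, but 0.07 with CRL1506, so that the lower level with CRL1506 was seen by 1 of 2 probes.

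Among the receptors, SIGIRR is an inhibitory member of the IL-1 receptor and TLR family. Its probe, at chr7:148277090-148277149 (minus strand), had signals of 485 with LPS, 157 with CRL1505 + LPS and 391 with CRL1506 + LPS. The corresponding levels were -0.62, -1.72 and -0.83, with CRL1505 + LPS the lowest of the 3 arrays. *Sigirr* was 2.15-fold lower with CRL1505 (log2 ratio -1.11) and 1.16-fold lower with CRL1506 (-0.22). The first value lay between -1.61 and -0.79 under the other normalizations, with 4 of 7 past 2-fold. Lower ratios than that of *Sigirr* with CRL1505 were found for 6.87% of genes.

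CD180 (RP105) is a TLR-like receptor without a TIR domain that pairs with MD-1 and restrains TLR4 in macrophages. It is covered by 4 probes, which fell into 2 pairs at different places of the gene on chromosome 13. The members of 1 pair lie side by side, with 0 bases between them, at chr13:103494224-103494283 and chr13:103494284-103494342 (plus strand), and are annotated to an Ensembl transcript. The other pair lies at chr13:103496269-103496328 and chr13:103496617-103496676, beginning 1926 bases further on, and is annotated to the RefSeq mRNA. Of these, 3 probe sequences are printed as the files give them, because the size of the *Cd180* difference depends on which of them is read.
Ensembl-annotated probe, chr13:103494224-103494283: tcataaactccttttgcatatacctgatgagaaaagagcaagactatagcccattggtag
Ensembl-annotated probe, chr13:103494284-103494342: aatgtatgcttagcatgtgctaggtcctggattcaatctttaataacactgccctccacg
RefSeq-annotated probe, chr13:103496269-103496328: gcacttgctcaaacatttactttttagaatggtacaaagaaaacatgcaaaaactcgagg

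The brightest *Cd180* probe, at chr13:103494284-103494342, had signals of 718 with LPS, 758 with CRL1505 + LPS and 3133 with CRL1506 + LPS, and levels of -0.05, 0.55 and 2.17. Its neighbour had signals of 474, 448 and 1668, and levels of -0.65, -0.21 and 1.26. In both, the CRL1506 + LPS array stood far above the other two. The log2 ratio with CRL1506 was 2.22 (4.65-fold) for the first and 1.91 (3.75-fold) for the second, and 2.02 to 2.30 for the first under the 7 other normalizations. Only 1.0% of genes had a higher ratio with CRL1506 than *Cd180* by its brightest probe. Whether the sequence of that probe also matches other transcripts was not checked. With CRL1505 the log2 ratios of the pair were 0.60 and 0.44.

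By the RefSeq-annotated probes the difference was smaller. The probe at chr13:103496269-103496328 had signals of 286, 365 and 415 on the LPS, CRL1505 + LPS and CRL1506 + LPS arrays, and levels of -1.38, -0.50 and -0.75. Its log2 ratios were 0.88 with CRL1505 (1.83-fold) and 0.63 with CRL1506 (1.55-fold). The last probe, at chr13:103496617-103496676, had signals of 272, 196 and 388 and levels of -1.45, -1.40 and -0.85, with log2 ratios of 0.05 with CRL1505 and 0.60 with CRL1506. All 4 probes were thus higher with CRL1506 than with LPS, but 2 of 4 past 2-fold, and the SD of the log2 ratio between them was 0.84. Adjacent probes share their transcript and are not independent measurements.

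TIPE2, encoded by *Tnfaip8l2*, is a lipid transfer protein of macrophages and lymphocytes that restrains TLR responses. Its probe, at chr3:94943655-94943714 (minus strand), had levels of 0.89 with LPS, 2.08 with CRL1505 + LPS and 0.92 with CRL1506 + LPS, with the LPS and CRL1506 + LPS arrays close together. The log2 ratio was 1.20 with CRL1505, which is 2.29-fold, and past 2-fold in 6 of 7 other normalizations, from 0.69 to 1.49. With CRL1506 the ratio of *Tnfaip8l2* was 0.03, and its sign changed with the normalization (-0.17 to 0.12).

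**Figure D3:**
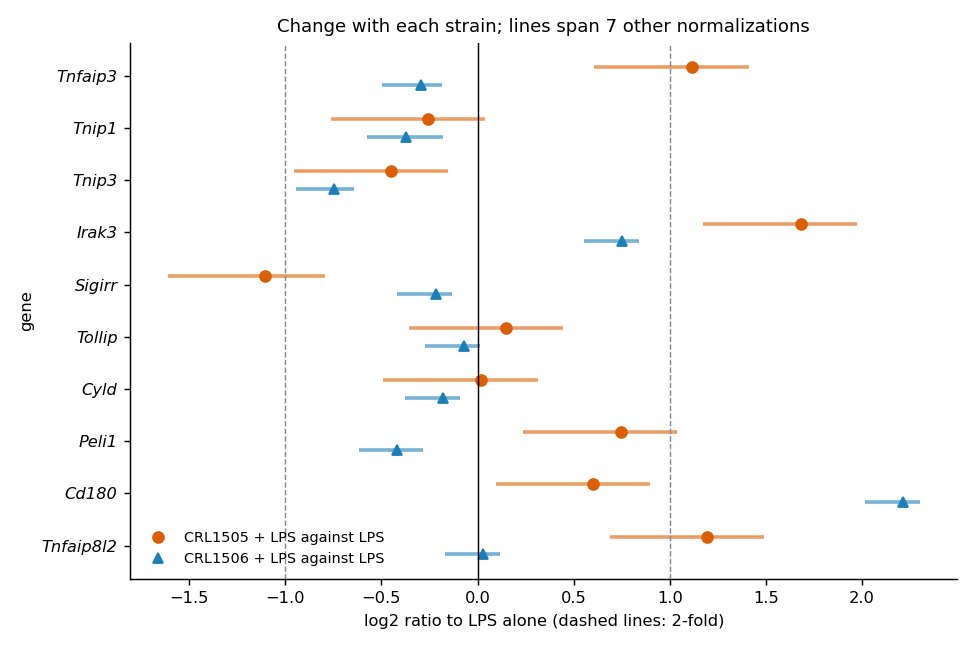
Log2 ratio of each member to LPS alone, on the x axis, with CRL1505 + LPS as circles and CRL1506 + LPS as triangles, from 1 array each. The lines span the 7 other normalizations and the dashed lines mark 2-fold; *Irak3* with CRL1505 and *Cd180* with CRL1506 stay past 2-fold along the whole line.

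**Figure D4:**
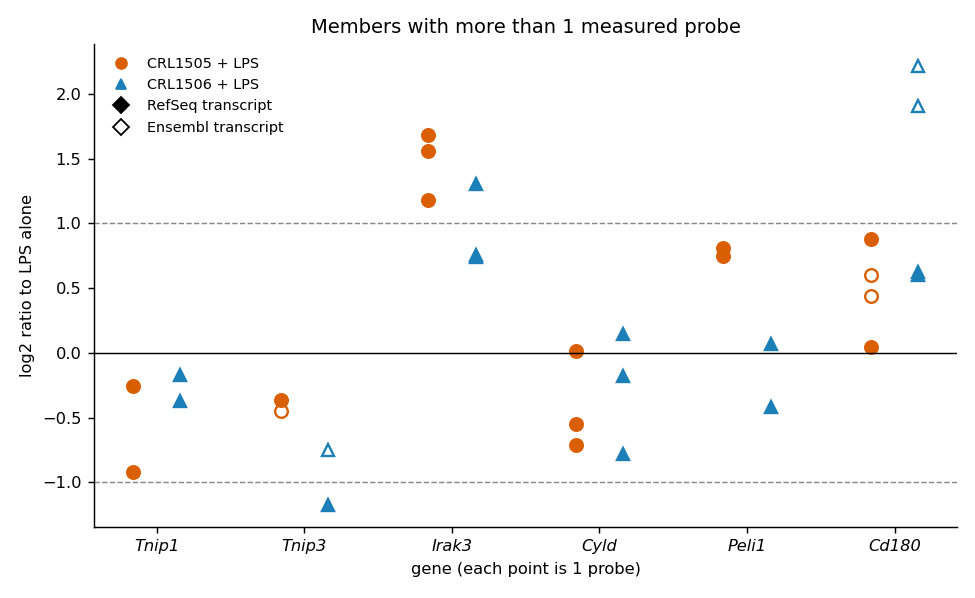
Log2 ratio to LPS for every measured probe of the 6 members with more than 1 measured probe, each point 1 probe on 1 pair of arrays, filled for probes annotated to a RefSeq and open for those annotated to an Ensembl transcript. The probes of *Cd180* spread over more than 1 log2 unit with CRL1506, while the 3 probes of *Irak3* are above 0 with both strains.

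The strains were then compared with each other, a comparison that does not use the LPS array. *Tnfaip3* was 2.66-fold higher with CRL1505 + LPS than with CRL1506 + LPS (log2 ratio 1.41), *Tnfaip8l2* 2.24-fold (1.17) and *Peli1* 2.24-fold (1.16). These 3 of 10 members stand beside 9.02% of all 15780 genes that were at least 2-fold higher. *Cd180* was 3.06-fold lower (log2 ratio -1.61), the 1 member past 2-fold in this direction, against 7.47% of genes. The median of the members was 0.26 (all genes 0.03), and 8 of 10 were above 0, or 4 to 8 under the 7 other normalizations. The same number, 8, lay above the median of all genes, which itself ran from -0.37 to 0.57 under those. *Tnfaip3* and *Cd180* were past 2-fold in each of those normalizations, *Tnfaip8l2* in 5 and *Peli1* in 2. The second *Peli1* probe gave 0.74, or 1.67-fold, so that *Peli1* was past 2-fold by its brighter probe only.

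For *Cd180* the difference between the strains rests on the Ensembl-annotated probes, with log2 ratios of -1.61 and -1.46. The RefSeq-annotated *Cd180* probes gave 0.25 and -0.56, so that the sign of the former is the opposite. *Irak3* was 1.9-fold higher with CRL1505 by its brightest probe (log2 ratio 0.93), and its 3 probes ran from -0.13 to 0.93. *Sigirr* was 1.85-fold lower (-0.89). The remaining members had log2 ratios between strains of 0.30 for *Tnip3*, 0.22 for *Tollip*, 0.20 for *Cyld* and 0.12 for *Tnip1*, each of which changed sign with the normalization. Other probes of these genes gave other values. The RefSeq-annotated *Tnip3* probe gave 0.81 and the second *Tnip1* probe -0.75, opposite in sign to the brightest. The other *Cyld* probes gave 0.07 and -0.70.

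**Figure D5:**
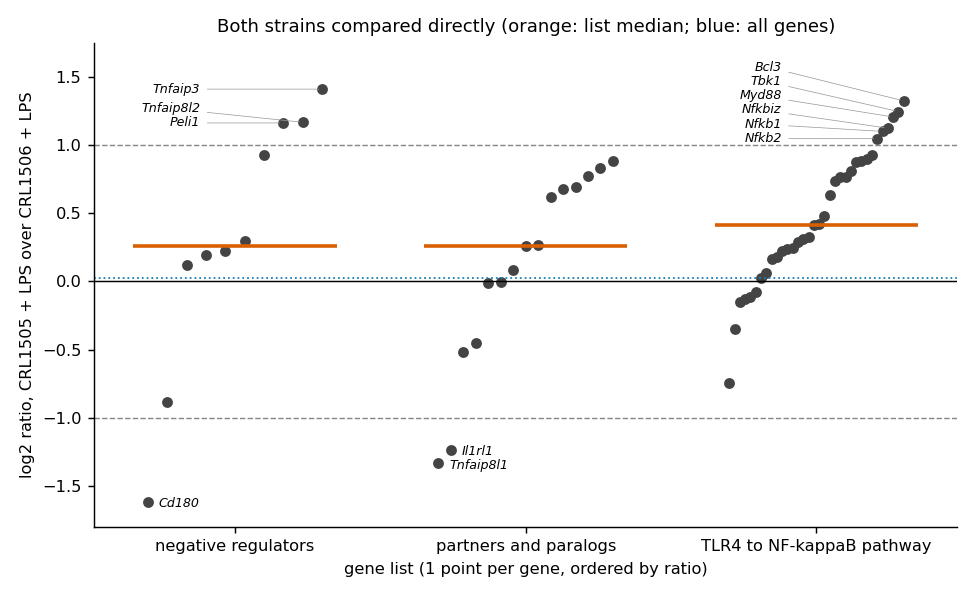
Log2 ratio of CRL1505 + LPS over CRL1506 + LPS for the members, their partners and paralogs, and genes of the pathway from TLR4 to NF-kappaB, 1 point per gene from 1 array per strain. Dashed lines mark 2-fold, orange lines the median of each list (0.26, 0.26 and 0.42) and the dotted line that of all genes (0.03).

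Partners and paralogs of the members were looked at next. Of 18 genes on the array, 16 could be compared with LPS for each strain and 15 between the strains. None was at least 2-fold higher, against 9.93% of all genes with CRL1505, 5.67% with CRL1506 and 9.02% between the strains. In the same order, 2, 1 and 2 were at least 2-fold lower, against 8.41%, 3.53% and 7.47% of all genes. These were *Il1rl1* and *Tnfaip8l1*, and *Il1rl1* alone with CRL1506. Between the strains their log2 ratios were -1.24 and -1.33, and up to -0.74 and -0.84 under the other normalizations, so that neither was past 2-fold in each of them. The medians were 0.09, -0.17 and 0.26. Among the cofactors of A20, the log2 ratios with CRL1505 and with CRL1506 were 0.61 and -0.01 for *Tax1bp1*, 0.63 and -0.05 for *Itch*, and 0.38 and 0.12 for *Rnf11*. *Tnip2*, the paralog of *Tnip1* and *Tnip3*, had values of 0.91 and 0.08.

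The other kinase genes of the *Irak3* family were under 2-fold with both strains, with log2 ratios for CRL1505 and CRL1506 of 0.38 and -0.31 for *Irak1*, 0.31 and -0.47 for *Irak2* and 0.05 and 0.07 for *Irak4*. *Il1rl1*, which encodes ST2, the receptor for IL-33 and like SIGIRR a member of the IL-1 receptor family, had log2 ratios of -2.44 with CRL1505 (-2.95 to -1.99 under the other normalizations) and -1.21 with CRL1506 (-1.41 to -1.06). *Ly86*, which encodes the MD-1 partner of CD180, had 0.48 with CRL1505 (-0.03 to 0.77 under the other normalizations) and -0.41 with CRL1506. *Cd180* itself was higher with both by its brightest probe. Of the paralogs of *Tnfaip8l2*, *Tnfaip8l1* had -1.88 and -0.55 and *Tnfaip8* -0.67 and -0.76, opposite in sign to *Tnfaip8l2* with CRL1505, and *Tnfaip8l3* was well above background on none of the arrays. *Tom1*, which binds TOLLIP, had -0.71 and -0.19. *Spata2*, which binds CYLD, had 0.12 and -0.14. The deubiquitinases *Otud7b* and *Otulin* had -0.26 and 0.19, and 0.03 and 0.03. Of the paralogs of *Peli1*, *Peli2* was well above background on none of the arrays and *Peli3* on that of LPS only. With CRL1505 the sign also changed with the normalization for *Rnf11*, *Irak1*, *Irak2*, *Irak4*, *Spata2*, *Otud7b* and *Otulin*. With CRL1506 it changed for *Tax1bp1*, *Itch*, *Rnf11*, *Tnip2*, *Irak4*, *Tom1*, *Otud7b* and *Otulin*.

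The pathway from TLR4 to NF-kappaB was described by 35 genes, of which 34 were compared. They include genes of NF-kappaB inhibitors, such as *Nfkbia*, so that the list is not only of what the members restrain. With CRL1505 the kinase gene *Tbk1* was at least 2-fold higher than with LPS (log2 ratio 1.07, 0.56 to 1.37 under the other normalizations) and none was at least 2-fold lower, against 9.93% and 8.41% of all genes. With CRL1506 *Ly96*, which encodes the TLR4 coreceptor MD-2, was higher (1.05, 0.85 to 1.13) and *Bcl3*, an atypical IkappaB gene, was lower (-1.13, -1.33 to -1.01), against 5.67% and 3.53% of all genes. The median log2 ratio was 0.32 with CRL1505 and -0.21 with CRL1506, near the 0.37 and -0.20 of the negative regulators. Between the strains 6 pathway genes were at least 2-fold higher with CRL1505, *Bcl3* (1.32), *Tbk1* (1.25), *Myd88* (1.21), *Nfkbiz* (1.12), *Nfkb1* (1.10) and *Nfkb2* (1.05), and none was lower, against 9.02% and 7.47% of all genes. Their lowest values under the other normalizations ran from 0.92 for *Bcl3* to 0.65 for *Nfkb2*, so that each of the 6 was under 2-fold in at least 1 of them. Of the 6, *Myd88*, *Nfkbiz*, *Nfkb1* and *Nfkb2* were named after their values were seen.

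By the presence of an NF-kappaB motif match in the promoter, the log2 ratios with CRL1505 were 1.11 for *Tnfaip3*, -0.26 for *Tnip1*, -0.45 for *Tnip3* and 0.02 for *Cyld*. The members without a match whose promoter was at hand had 1.68 (*Irak3*), 0.15 (*Tollip*), 0.74 (*Peli1*), 0.60 (*Cd180*) and 1.20 (*Tnfaip8l2*). Of the members with a match, *Tnfaip3* lay among those without, while *Tnip1*, *Tnip3* and *Cyld* lay below all of them. *Cyld* and *Tollip* lay closer together than the error of a ratio. These values are of the brightest probes and of this comparison only. With CRL1506 the order was another. *Peli1*, without a match, lay at -0.42, below *Tnfaip3* (-0.29), *Tnip1* (-0.37) and *Cyld* (-0.18), and *Tnip3*, with a match, was the lowest (-0.75). Whether the motif has a part in them was not tested.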

How the data were processed

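RAW macrophage RNA was measured on 3 one-colour Agilent arrays with 62976 spots, of which 59305 were gene spots, 1 array for each condition. For each array the authors deposited the spot intensity output of Feature Extraction (version 12.0.3.1 per the file headers, while the methods name another version), which the software had corrected for local background and spatial trends, with no normalization between arrays, and the software's quality flags, used as other values. A table of log2 values was deposited as well, with a median of 6.77 in each column. It differed from quantile-normalized normexp intensities (offset 50) by a median of 0.026 to 0.027, and its scale and centring are taken from that match. The labels name limma without a version.

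From the log2 processed signal, the 75th percentile over the array's gene spots was subtracted. Outlier spots (467, 241 and 274 on the LPS, CRL1505 + LPS and CRL1506 + LPS arrays) were left out, repeated spots averaged and each gene represented by its brightest probe. No gene spot was saturated. Probes well above background on neither array were left out. Where 1 side was not well above background, that side was set to the higher of its own value and the lowest signal well above background, so that the ratio is a bound. Of the gene spots, 54.5%, 48.5% and 55.3% were well above background. Ratios of at least 2-fold were counted, the fold threshold of the study's methods. There it was set against cells without LPS, and here against LPS alone and between the strains. The methods' t-test was not run for want of replicates. The number of arrays limits the precision. Repeated spots of a probe varied by an SD of 0.043 to 0.048 in the log2 ratio, which covers a single hybridisation.

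The members, the partner and pathway lists and the markers were chosen with earlier results of these data known. All members and partners were named, and pathway genes at least 2-fold from LPS with either strain. In the text, 7 other normalizations are the shift by the median, the 75th percentile of probes detected on all arrays, quantile, cyclic loess, spike-in probes, normexp and the deposited table. Uneven spots are those with a mean over median pixel signal above 0.2 on the log2 scale. The software was R 4.3.3 with limma 3.58.1 for normalization, and Python 3.11.15 (pandas 2.3.3, NumPy 2.4.6, matplotlib 3.10.9) for all else. The procedure was tested on simulated data. Promoter sequences are from RefSeq (GRCm38.p6), and probe positions from the files (mm9).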

Additional observations from a re-analysis of the deposited data

Results flagged for a closer look

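*Tnfaip3* and *Peli1* stood on opposite sides of LPS with the strains, above it with CRL1505 and below it with CRL1506, by their brightest probes and under the 7 other normalizations. The log2 ratio of CRL1505 + LPS over CRL1506 + LPS was 1.41 for *Tnfaip3* and 1.16 for *Peli1*. With 1 array per condition this difference was not tested, and CRL1505 + LPS cannot be told apart from its slide. The log2 ratio of *Tnfaip3* with CRL1506 was small, at -0.29. Its modelled error was 0.20, and the median SD between probes of a gene was 0.215 in that comparison. For *Peli1* the second probe lay at 0.07 with CRL1506 and so did not repeat the lower level, and *Tnfaip3* has no second probe. Between the strains the second *Peli1* probe gave a log2 ratio of 0.74, under 2-fold.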

How the results depend on the processing

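No paired analysis was possible because each condition has 1 array, and for the same reason no array could be left out. Of 390 log2 ratios of members under the alternatives, 327 moved by at most 0.256, the mean SD between probes of a gene. Many of the 390 could not move, so that this count is no measure of robustness. Outlier spots kept, uneven spots left out, and the 2 changes to the filter on dim probes left every member as it was. No member spot was an outlier or uneven, and the brightest probes were all well above background. Of the 390, a change of sign was seen in 25, of *Cyld* (8), *Tnip1* (7), *Tollip* (4), *Tnfaip8l2* (4), *Tnip3* (1) and *Cd180* (1), and 14 of these moved by more than 0.256. In 1 of the 25 the ratio had been at least 2-fold, *Cd180* between the strains, at 0.25 by its brightest RefSeq-annotated probe against -1.61. That alternative was chosen after seeing the data, and with it no member was at least 2-fold higher with CRL1506 and *Tnip3* was lower (-1.17). Scaling moved all genes together. The median log2 ratio of all genes with CRL1505, with CRL1506 and between the strains was 0.33, -0.26 and 0.57 after the shift by the median, and -0.48, -0.17 and -0.37 after the shift by spike-in probes. The median of the members moved with it, to 0.67 with CRL1505 and 0.75 between the strains after the former, and to -0.13 and -0.14 after the latter. Between the strains it was 0.53 with RefSeq-annotated probes. The number of members at least 2-fold from LPS with CRL1505 was 4, but 2 with spike-in probes and 2 in the deposited table. With CRL1506 it was 1, but 3 at a threshold of 1.5-fold. Between the strains it was 4, but 2 with the mean over probes. The cause of these changes was not tested. Signal over background limits the measured probes whose levels were below 0 on all arrays, those of *Sigirr*, the RefSeq-annotated probes of *Cd180*, the second probe of *Tnip1* and the other probes of *Cyld*.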
